A study of Mus musculus with 11 samples.

Results

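Genes that mark the early oligodendrocyte lineage were followed through a culture experiment on mouse neural stem cells. The set holds 9 genes of the 37991 in the table, picked by name for what they are known to do. Pdgfra, Cspg4, Olig1 and Olig2 mark precursor cells. Gpr17, Bcas1 and Enpp6 mark cells that are committing to become oligodendrocytes. Nkx2-2 and Ptprz1 belong to the lineage but fall in neither set. All 9 were in the table and all 9 passed the filter on low values.

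The cells had been taken from the frontal cortex of C57BL/6J embryos at E14.5 (days of embryonic development) and grown as neural stem cells in a proliferation medium. Cells sampled at day 0 form the NSC group (3 libraries). The other libraries came from day 4 of culture in another medium. The Astrocyte group (3 libraries) received DMEM with 1% N-2 and 1% fetal bovine serum, and the Neuron group (3 libraries) received Neurobasal with 2% B-27. The Oligodendrocyte group (2 libraries) received that same Neurobasal and B-27 medium with triiodothyronine (T3), a thyroid hormone, at 30 ng/mL. All cultures were of 1 wild-type strain and no group carried an engineered allele. Group names give the medium, not the cells in the dish. No group stayed in proliferation medium to day 4, so the medium and the 4 days cannot be told apart in any comparison with NSC. RNA was measured by poly(A) sequencing of whole cultures. In such bulk samples, fewer cells of a type and less RNA per cell cannot be told apart.

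Oligodendrocyte precursors arise from neural stem cells, divide in response to platelet-derived growth factor, and carry the receptor Pdgfra and the proteoglycan NG2, encoded by Cspg4. The paired transcription factors Olig1 and Olig2 specify the lineage, although dividing cortical progenitors in culture express them too. When a precursor stops dividing it loses Pdgfra and passes through a brief stage marked by Gpr17, Bcas1 and Enpp6 before it makes myelin proteins. Thyroid hormone is a classical signal for that step.

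Levels are in CPM, the number of reads of a gene scaled to the same total in every library. CPM is not divided by gene length, so levels are compared between libraries and not between genes. The libraries rested on an estimated 49.3 to 66.2 M (mega) reads, so 1 read was worth 0.0151 to 0.0203 CPM. Differences were tested on log2(CPM + 1) with limma across 13342 genes, and a gene was called where its Benjamini-Hochberg adjusted p was under 0.05. A log2 fold change on this scale understates the change of a gene with low values. Replicates are described as biological, with no word on whether they came from separate embryos or dishes. The p-values measure the spread between these libraries, which may be technical.

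The promoters of 4 of the genes are shown because these genes took different courses between the media: Pdgfra and Nkx2-2 were higher in the Neuron medium and lower with T3, Enpp6 went from nearly no reads to a high level, and Olig2 fell. Each sequence is the 250 bases before the RefSeq start site of that gene, on the strand of the gene. Capitals mark matches on either strand to CANNTG, the E-box bound by basic helix-loop-helix factors such as Olig1 and Olig2, or to ACAATG, a core sequence of Sox factors.
Pdgfra, GRCm38.p6 chr5:75152001-75152250, plus strand: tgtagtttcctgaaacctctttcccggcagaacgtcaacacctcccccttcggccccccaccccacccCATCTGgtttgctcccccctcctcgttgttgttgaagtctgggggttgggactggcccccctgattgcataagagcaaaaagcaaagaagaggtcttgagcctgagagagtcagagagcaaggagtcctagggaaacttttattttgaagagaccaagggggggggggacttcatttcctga
Nkx2-2, GRCm38.p6 chr2:147186403-147186652, minus strand: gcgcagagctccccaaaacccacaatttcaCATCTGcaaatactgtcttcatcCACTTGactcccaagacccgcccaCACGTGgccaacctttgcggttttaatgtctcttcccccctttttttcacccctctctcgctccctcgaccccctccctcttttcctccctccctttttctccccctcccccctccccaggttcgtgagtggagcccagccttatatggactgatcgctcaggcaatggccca
Enpp6, GRCm38.p6 chr8:46986637-46986886, plus strand: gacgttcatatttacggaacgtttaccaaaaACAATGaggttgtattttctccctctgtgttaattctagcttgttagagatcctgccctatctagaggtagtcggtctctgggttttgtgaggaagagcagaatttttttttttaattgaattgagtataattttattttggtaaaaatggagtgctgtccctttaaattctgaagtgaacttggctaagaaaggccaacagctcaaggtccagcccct
Olig2, GRCm38.p6 chr16:91225300-91225549, plus strand: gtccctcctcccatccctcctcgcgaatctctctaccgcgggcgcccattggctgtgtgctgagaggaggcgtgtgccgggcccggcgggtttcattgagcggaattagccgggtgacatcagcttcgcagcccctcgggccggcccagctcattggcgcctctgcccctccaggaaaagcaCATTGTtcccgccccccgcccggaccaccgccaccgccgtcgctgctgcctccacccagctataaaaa
The search covered both strands of the 300 bases from 250 before to 50 after the start. Its 5 motifs were the E-box CANNTG, the narrower E-box CAGCTG (each of which is also a match to the first), the Sox core sequences ACAAAG and, as above, ACAATG, and the thyroid hormone receptor core sequence AGGTCA. Of the 9 genes, 6 had an entry in the promoter table, and the other 3 are Olig1, Gpr17 and Bcas1. Nkx2-2 held CANNTG at 3 places, at -220, -197 and -173 from the start, and Pdgfra held it at -182 and at +17. Enpp6 held ACAATG at -219, and Olig2 held it at -68 on the other strand. No match was found in the windows of Cspg4 and Ptprz1, and no match to the narrower E-box, to the first Sox sequence or to the receptor core was found in any of the 6. Among 32851 promoter windows of this length, CANNTG occurred in 72.3% and the narrower CAGCTG in 16.3%. Of the Sox sequences, ACAAAG occurred in 18.7% and ACAATG in 12.6% of windows, and AGGTCA occurred in 16.3%. These are letters in a window and do not show a bound site.

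After 4 days the precursor genes and the commitment genes had moved apart. The 3 commitment genes rose in all 3 media, from 6.50-fold (Bcas1, Astrocyte) to 766.1-fold (Enpp6, Neuron) in mean CPM. Of the 4 precursor genes, Olig1, Olig2 and Cspg4 fell in all 3 media, and Pdgfra rose in all 3. Among the day 4 groups, the Neuron medium had the highest mean for 9 of the 9 genes, and the Astrocyte medium had the lowest for 7. The exceptions were Pdgfra and Nkx2-2, which were lowest with T3. These orders were not counted over all tested genes, and the 9 genes were chosen with earlier results known. They are given as a description. Of the 9 genes, 9 were called in Astrocyte against NSC (4 higher, 5 lower), where 83.6% of all tested genes were called (48.0% higher, 35.6% lower). In Neuron against NSC 8 were called (5 higher, 3 lower), against 83.1% of all genes (43.5% higher, 39.6% lower). In Oligodendrocyte against NSC 9 were called (4 higher, 5 lower), against 80.2% of all genes (48.1% higher, 32.2% lower). Most of the tested genes were called over the 4 days, so the counts for the 9 genes say little by themselves. The 3 comparisons share the same NSC libraries.

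**Figure D1:**
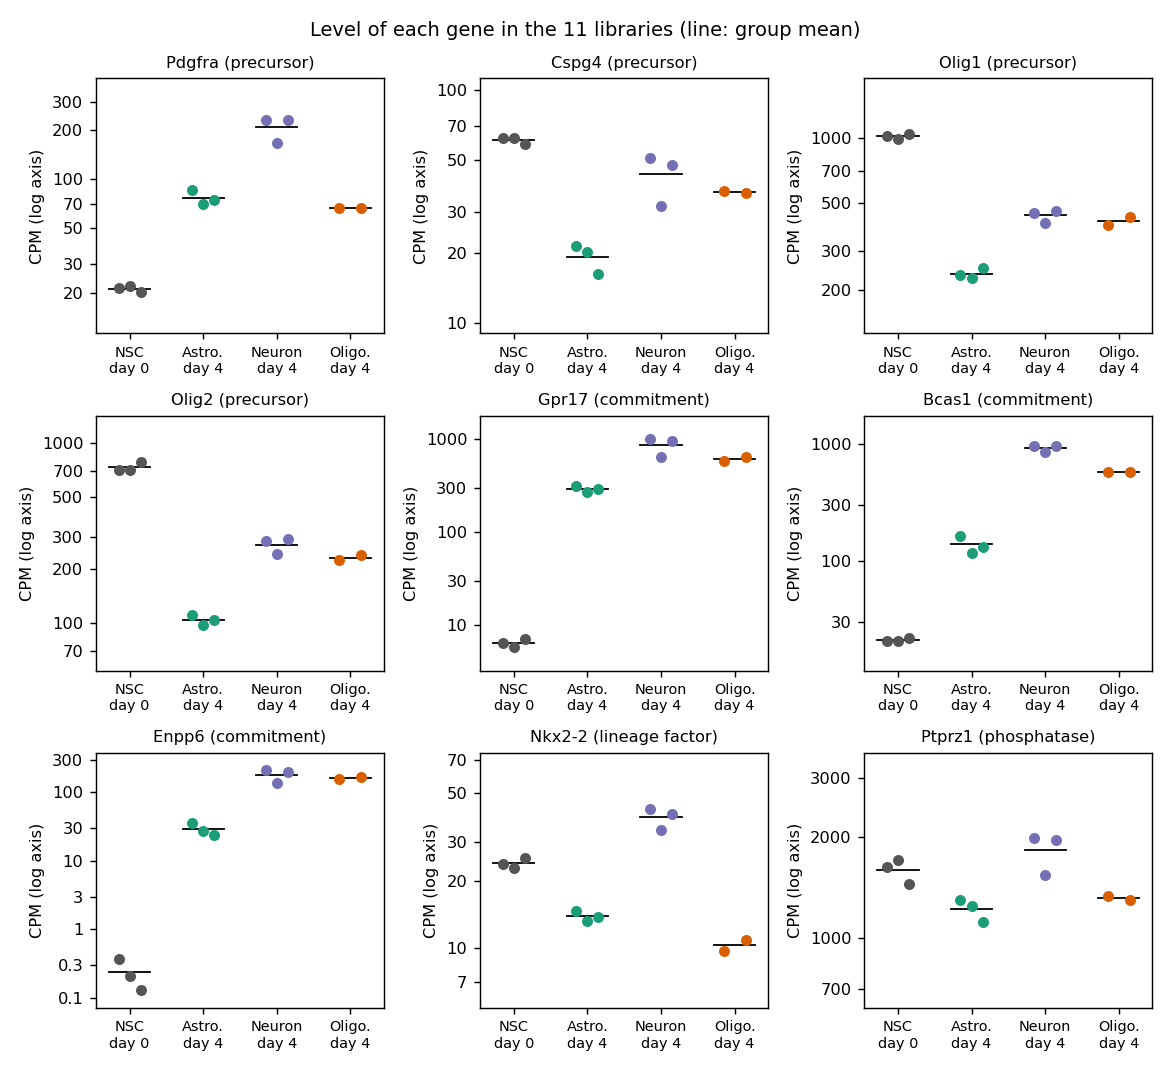
Level of each of the 9 genes in each library, in CPM on a log axis, for day 0 neural stem cells (NSC) and for the Astrocyte, Neuron and Oligodendrocyte media at day 4. Points are libraries and lines are group means. Gpr17, Bcas1 and Enpp6 are lowest at day 0, Olig1, Olig2 and Cspg4 are highest there, and Pdgfra and Nkx2-2 peak in the Neuron medium.

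Pdgfra, the receptor for platelet-derived growth factor A, which keeps precursors dividing and alive, lies on chr5:75548316-75594229 of mm9 (plus strand, ENSMUSG00000029231). Its CPM was 21.24, 22.15 and 20.19 in NSC, 85.85, 70.15 and 74.64 in Astrocyte, 232.27, 167.62 and 232.51 in Neuron, and 66.17 and 66.16 in Oligodendrocyte. The NSC libraries were the lowest and the Neuron libraries the highest, with no overlap between Neuron and any other group. Against NSC, Pdgfra rose by 1.81 on the log2 scale in Astrocyte (SE 0.112, limma adjusted p = 2.69e-09), by 3.24 in Neuron (SE 0.112, adjusted p = 6.33e-12) and by 1.60 in Oligodendrocyte (SE 0.125, adjusted p = 4.19e-08). In mean CPM these were 3.63-fold, 9.95-fold and 3.12-fold. The Oligodendrocyte and Astrocyte levels, neighbours in the order, differed by -0.21 (SE 0.125, adjusted p = 0.179). This pair was called once the second Neuron library was left out of the fit (adjusted p = 0.0217). Pdgfra is also a gene of fibroblasts and meningeal cells. The 5 markers of those cells, Col1a1, Col1a2, Col3a1, Dcn and Lum, were each under 1 CPM in every library, with a summed level of 0.06 to 0.85 CPM.

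Cspg4, which encodes the NG2 proteoglycan on the surface of precursors, lies on chr9:56712911-56747677 (plus strand, ENSMUSG00000032911). Its CPM was 62.08, 62.47 and 58.5 in NSC, 21.34, 20.12 and 16.22 in Astrocyte, 51.02, 31.85 and 47.93 in Neuron, and 37.0 and 36.23 in Oligodendrocyte. Every NSC library was above every day 4 library, every Astrocyte library was below the rest, and the Oligodendrocyte pair lay inside the Neuron range. Cspg4 fell by 1.63 on the log2 scale in Astrocyte (SE 0.142, limma adjusted p = 1.15e-07), by 0.50 in Neuron (SE 0.142, adjusted p = 0.00495) and by 0.72 in Oligodendrocyte (SE 0.159, adjusted p = 0.000912). Without the second Neuron library the fall in Neuron was 0.30 (adjusted p = 0.00498), and without the filter on low values the call was lost (adjusted p = 0.0671). Cspg4 thus took the opposite course to Pdgfra, its fellow surface marker. The CPM ratio of Cspg4 to Pdgfra was 2.82 to 2.92 in the NSC libraries, 0.217 to 0.287 in Astrocyte, 0.190 to 0.220 in Neuron and 0.548 to 0.559 in Oligodendrocyte. Cspg4 is also a gene of pericytes and other mural cells. Of 7 mural markers, 3 were under 1 CPM in every library (Kcnj8, Abcc9 and Anpep), and the summed level of the 7 was 50.73 to 53.26 CPM in NSC, 126.1 to 136.4 in Astrocyte, 73.8 to 96.12 in Neuron and 49.41 to 57.87 in Oligodendrocyte. Nearly all of each sum came from Notch3, Pdgfrb and Acta2, which averaged 45.53, 41.92 and 42.01 CPM in Astrocyte and 43.04, 0.263 and 8.36 CPM in NSC. The sum therefore follows a few genes, and the part of mural cells in the level of Cspg4 was not tested.

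Olig2 and Olig1, basic helix-loop-helix factors that specify the lineage and stand next to each other on chromosome 16, fell together. Olig2 lies on chr16:91225795-91228922 (plus strand, ENSMUSG00000039830) and Olig1 on chr16:91270014-91272184 (plus strand, ENSMUSG00000046160), with 41091 bases between the end of Olig2 and the start of Olig1. Olig2 CPM was 704.49, 705.86 and 788.26 in NSC, 110.46, 97.96 and 104.52 in Astrocyte, 284.83, 241.24 and 291.17 in Neuron, and 223.56 and 237.18 in Oligodendrocyte. The 4 groups did not overlap, with NSC highest and Astrocyte lowest. Olig2 fell by 2.80 on the log2 scale in Astrocyte (SE 0.0800, limma adjusted p = 8.76e-13), by 1.43 in Neuron (SE 0.0800, adjusted p = 1.03e-09) and by 1.66 in Oligodendrocyte (SE 0.0894, adjusted p = 8.08e-10). NSC held 7.03 times the mean CPM of Astrocyte, 2.69 times that of Neuron and 3.18 times that of Oligodendrocyte.

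Olig1 CPM was 1023.88, 991.27 and 1043.17 in NSC, 234.59, 226.06 and 250.33 in Astrocyte, 451.26, 406.87 and 461.57 in Neuron, and 395.34 and 433.95 in Oligodendrocyte. NSC was again highest and Astrocyte lowest, each clear of the rest, while Neuron and Oligodendrocyte overlapped. Olig1 fell by 2.10 on the log2 scale in Astrocyte (SE 0.0691, limma adjusted p = 3.54e-12), by 1.21 in Neuron (adjusted p = 1.23e-09) and by 1.30 in Oligodendrocyte (SE 0.0772, adjusted p = 2.36e-09). Olig2 lost more than Olig1 in each medium, as a description. The CPM ratio of Olig2 to Olig1 was 0.688 to 0.756 in the NSC libraries, 0.418 to 0.471 in Astrocyte, 0.593 to 0.631 in Neuron and 0.547 to 0.566 in Oligodendrocyte. No day 4 library reached the lowest ratio of the NSC libraries. Genes of cell division fell over the same 4 days: the summed level of 7 such genes was 2127 to 2224 CPM in NSC and 34.14 to 85.62 CPM at day 4. Their part in the fall of Olig1, Olig2 and Cspg4 was not tested.

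The 3 commitment genes started low and rose in every medium. Gpr17, a G protein-coupled receptor of cells that have left the precursor state but do not yet make myelin, lies on chr18:32102651-32109290 (minus strand, ENSMUSG00000052229). Its CPM was 6.4, 5.86 and 7.08 in NSC, 316.07, 272.11 and 289.93 in Astrocyte, 999.09, 638.78 and 950.32 in Neuron, and 577.53 and 646.25 in Oligodendrocyte. NSC was lowest and Astrocyte next, and the Oligodendrocyte pair overlapped the lowest Neuron library. Gpr17 rose by 5.30 on the log2 scale in Astrocyte (SE 0.135, limma adjusted p = 3.12e-13), by 6.83 in Neuron (SE 0.135, adjusted p = 4.26e-14) and by 6.36 in Oligodendrocyte (SE 0.151, adjusted p = 3.44e-13). Mean CPM was 45.4 times the NSC level in Astrocyte, 133.8 times in Neuron and 94.92 times in Oligodendrocyte. Gpr17 overlaps Lims2 on the opposite strand, and whether the counting used strand is not given in the sources used here. Lims2 reached at most 53.31 CPM, so the Gpr17 values are uncertain by what reads of one gene were counted for the other.

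Bcas1, a marker of newly formed oligodendrocytes at the start of myelin formation, lies on chr2:170172491-170253345 (minus strand, ENSMUSG00000013523). Its CPM was 20.95, 20.92 and 21.94 in NSC, 164.24, 117.87 and 132.43 in Astrocyte, 962.93, 847.74 and 960.8 in Neuron, and 575.44 and 569.2 in Oligodendrocyte. The 4 groups did not overlap, in the order Neuron, Oligodendrocyte, Astrocyte and NSC. Bcas1 rose by 2.63 on the log2 scale in Astrocyte (SE 0.0973, limma adjusted p = 1.18e-11), by 5.37 in Neuron (SE 0.0973, adjusted p = 2.00e-14) and by 4.69 in Oligodendrocyte (SE 0.109, adjusted p = 2.80e-13). Mean CPM was 6.50, 43.43 and 26.91 times the NSC level in these groups. Of the 3 commitment genes, Bcas1 had the widest gap between the Astrocyte and Neuron media, with a mean CPM 6.69 times higher in Neuron.

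Enpp6, a choline phosphodiesterase of newly forming oligodendrocytes, lies on chr8:48072279-48180249 (plus strand, ENSMUSG00000038173). Its CPM was 0.37, 0.21 and 0.13 in NSC, 35.59, 27.33 and 23.82 in Astrocyte, 209.73, 134.61 and 199.62 in Neuron, and 156.64 and 169.03 in Oligodendrocyte. The NSC values rest on an estimated 22, 12 and 8 reads, so Enpp6 was close to undetected before the medium change. Every day 4 library was above every NSC library, and the Oligodendrocyte pair lay inside the Neuron range. Enpp6 rose by 4.58 on the log2 scale in Astrocyte (SE 0.161, limma adjusted p = 7.08e-12), by 7.18 in Neuron (SE 0.161, adjusted p = 1.12e-13) and by 7.05 in Oligodendrocyte (SE 0.181, adjusted p = 6.35e-13). Mean CPM was 122.2, 766.1 and 688.0 times the NSC level. These ratios have few reads in the denominator. The log2 changes moved with the constant added before the logarithm, and for Neuron they ran from 5.13 with a constant of 5 to 9.11 with a constant of 0.1.

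Nkx2-2, a homeodomain factor that acts with the Olig genes and Sox10 when precursors differentiate, was the gene whose direction depended on the medium. It lies on chr2:147003282-147019979 (minus strand, ENSMUSG00000027434). Its CPM was 23.98, 22.94 and 25.32 in NSC, 14.68, 13.21 and 13.74 in Astrocyte, 42.09, 34.08 and 40.3 in Neuron, and 9.67 and 10.86 in Oligodendrocyte. The 4 groups did not overlap, with Neuron highest and Oligodendrocyte lowest. Nkx2-2 rose by 0.66 on the log2 scale in Neuron (SE 0.0856, limma adjusted p = 6.79e-06), and it fell by 0.75 in Astrocyte (SE 0.0856, adjusted p = 1.80e-06) and by 1.16 in Oligodendrocyte (SE 0.0957, adjusted p = 7.88e-08). In mean CPM, Neuron had 1.61 times the NSC level, and NSC had 1.74 times the Astrocyte level and 2.35 times the Oligodendrocyte level. Each neighbouring pair in this order was called.

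Ptprz1, a receptor tyrosine phosphatase of neural stem cells, astrocytes and precursors, moved least of the 9. It lies on chr6:22825502-23002916 (plus strand, ENSMUSG00000068748). Its CPM was 1621.04, 1705.79 and 1451.24 in NSC, 1293.46, 1240.84 and 1110.61 in Astrocyte, 1984.15, 1536.64 and 1957.95 in Neuron, and 1331.82 and 1295.93 in Oligodendrocyte. The NSC and Neuron ranges overlapped, and the highest Astrocyte library came close to the lowest Oligodendrocyte library. Ptprz1 fell by 0.39 on the log2 scale in Astrocyte (SE 0.107, limma adjusted p = 0.00390) and by 0.27 in Oligodendrocyte (SE 0.119, adjusted p = 0.0480), and its difference in Neuron was 0.19 (SE 0.107, adjusted p = 0.112). The call in Oligodendrocyte was lost in 8 of 21 alternative fits (adjusted p up to 0.193), among them those without the first or second NSC, the first or second Astrocyte, the third Neuron, or either Oligodendrocyte library. The difference in Neuron was called at 0.31 without the second Neuron library (adjusted p = 0.00355), and turned to -0.25 under quantile normalization (adjusted p = 0.0449).

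The second Neuron library was the lowest of the 3 Neuron libraries for 9 of the 9 genes, at 64.38% (Cspg4) to 89.14% (Olig1) of the mean of the other pair. How many of all tested genes were lowest in this library was not counted. Other measures of it differed as well. Its mitochondrial share was 8.91% of the CPM total, and 6.82% was the lowest share among Neuron libraries. Its summed level of 15 other precursor genes was 639.7 CPM, against 878.0 and 858.3 in the other Neuron libraries, while its summed level of 7 astrocyte markers was 7203 CPM, against 6631 and 6923. What set this library apart was not tested. Results for the Neuron group that change without it are given with both values.

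**Figure D2:**
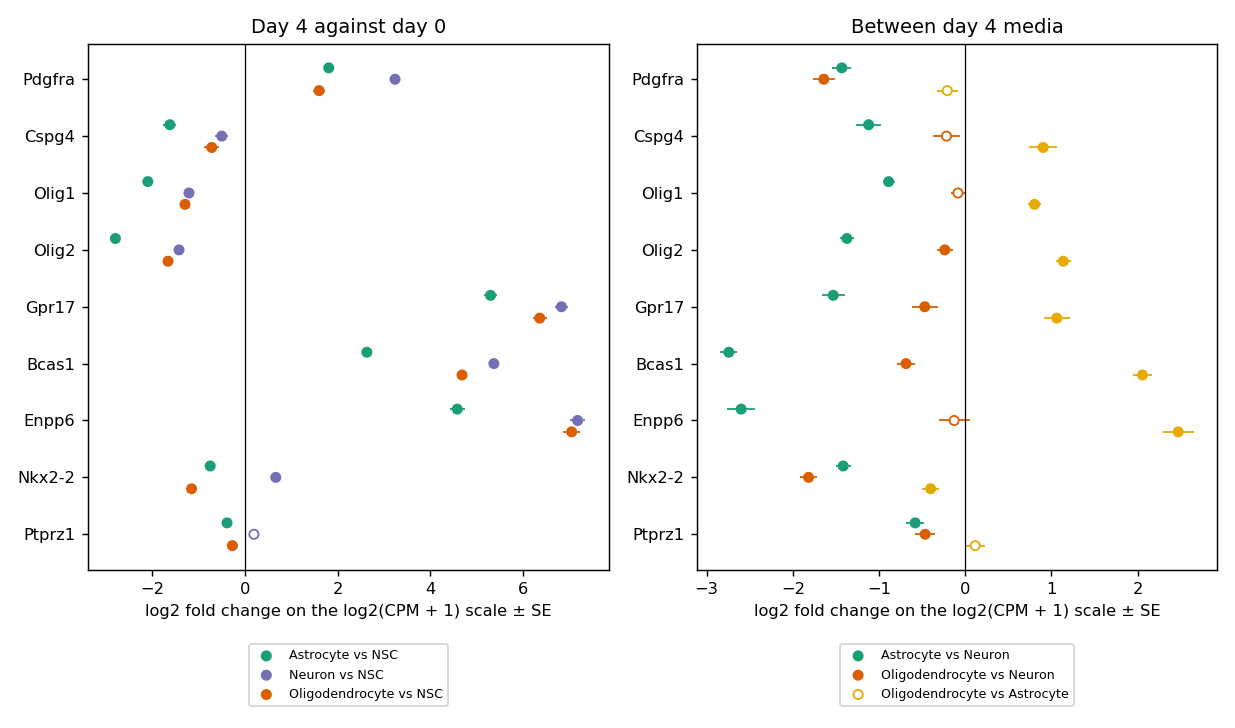
Log2 fold change of each of the 9 genes on the log2(CPM + 1) scale, with bars of 1 SE, for each day 4 medium against day 0 on the left and between the day 4 media on the right. Filled points passed an adjusted p of 0.05 in limma and open points did not. Gpr17, Bcas1 and Enpp6 lie right of 0 in every medium on the left, Olig1, Olig2 and Cspg4 lie left of it, and none of the Oligodendrocyte against Neuron points lies right of 0.

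The comparison of Oligodendrocyte with Neuron asks what added T3 changed, since the media differed by added T3 alone per the labels. What the B-27 supplement in both media holds is not given in the sources used here. In this text, "with T3" means with the added T3. No gene of the 9 was higher with T3. Of the 9, 6 were called lower. Of all tested genes 67.5% were called, 23.6% lower and 43.9% higher. The largest differences were in Nkx2-2, which was 1.82 lower on the log2 scale with T3 (difference -1.82, SE 0.0957, limma adjusted p = 3.18e-09), and Pdgfra (difference -1.64, SE 0.125, adjusted p = 1.04e-07). Neuron held 3.78 times the mean CPM of Nkx2-2 and 3.19 times that of Pdgfra. Bcas1 (-0.69, SE 0.109, adjusted p = 9.21e-05), Gpr17 (-0.47, SE 0.151, adjusted p = 0.0144), Ptprz1 (-0.47, SE 0.119, adjusted p = 0.00364) and Olig2 (-0.24, SE 0.0894, adjusted p = 0.0317) were also lower. The calls of Gpr17 and Olig2 were the least firm. Gpr17 lost its call in 6 of 21 alternative fits (adjusted p up to 0.137), among them those without the first or the third Neuron or the first Oligodendrocyte library. Olig2 lost it in 7 (adjusted p up to 0.177), among them those without the first or the third Neuron or either Oligodendrocyte library.

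The other 3 genes did not pass the test between these media. The 95% interval of the difference was -0.56 to 0.13 for Cspg4 (adjusted p = 0.242), -0.25 to 0.08 for Olig1 (adjusted p = 0.347) and -0.52 to 0.26 for Enpp6 (adjusted p = 0.544), all on the log2 scale. All 3 intervals include 0 and lie within 1 log2 unit of it. Without the second Neuron library, Cspg4 and Enpp6 were called lower with T3 as well. Cspg4 was then at -0.42 (adjusted p = 0.000937), Enpp6 at -0.33 (adjusted p = 0.0373), Gpr17 at -0.67 (adjusted p = 2.60e-06) and Olig2 at -0.32 (adjusted p = 0.000993), and Olig1 at -0.14 stayed short of the threshold (adjusted p = 0.0900). The scaling mattered too. The median difference of all tested genes was 0.15 as deposited and 0.03 after median-of-ratios scaling. Relative to that median, the 9 genes lay lower with T3 than their differences from 0 show. Under that scaling Olig1 (-0.23, adjusted p = 0.0189) and Cspg4 (-0.35, adjusted p = 0.0487) were called lower. Under quantile normalization Cspg4 was called lower too (-0.41, limma adjusted p = 0.0320), but Gpr17 lost its call (-0.32, limma adjusted p = 0.0713).

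In Astrocyte against Neuron, all 9 genes were called lower. Of all tested genes 62.2% were called, 22.0% lower and 40.3% higher. The differences on the log2 scale ran from -0.58 for Ptprz1 (SE 0.107, limma adjusted p = 0.000347) to -2.74 for Bcas1 (SE 0.0973, adjusted p = 1.35e-10). Enpp6 differed by -2.60, Gpr17 by -1.53, Pdgfra by -1.43, Nkx2-2 by -1.42, Olig2 by -1.37, Cspg4 by -1.12 and Olig1 by -0.89. The commitment genes Bcas1, Enpp6 and Gpr17 had the widest gaps. These calls held under each of the 21 alternative fits.

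In Oligodendrocyte against Astrocyte, 7 of the 9 genes were called, 6 higher and 1 lower. Of all tested genes 52.2% were called, 28.7% higher and 23.5% lower. Enpp6 (2.47, limma adjusted p = 1.31e-07), Bcas1 (2.06, adjusted p = 7.23e-09), Olig2 (1.14, adjusted p = 2.64e-07), Gpr17 (1.06, adjusted p = 6.08e-05), Cspg4 (0.90, adjusted p = 0.000358) and Olig1 (0.80, adjusted p = 1.73e-06) were higher with T3 on the log2 scale. Nkx2-2 was lower (-0.40, adjusted p = 0.00328). Pdgfra, given above, and Ptprz1 (0.12, SE 0.119, adjusted p = 0.436) did not pass. The media of this pair differ in base medium, supplement, serum and T3 together, so those cannot be told apart here.

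Astrocyte genes were also far apart between the groups. The summed level of 7 astrocyte markers was 480.2 to 509.2 CPM in NSC, 12190 to 13670 in Astrocyte, 6631 to 7203 in Neuron and 2171 to 2482 in Oligodendrocyte. Gfap, the astrocyte filament, averaged 7631 CPM in Astrocyte, 2647 in Neuron and 284.4 in Oligodendrocyte. Aqp4, the astrocyte water channel, averaged 1479, 763.3 and 85.6 CPM in the same groups. Gfap made up most of the sum in Astrocyte. Of the 7 markers, 3 were higher and 4 lower in Astrocyte than in Neuron: Slc1a2, a glutamate transporter, averaged 269.6 against 869.6 CPM, and S100b, Aldoc and Aldh1l1 were lower too. Of all tested genes, 40.3% were higher and 22.0% lower between these media. CPM shares out 1 total, and the part of the astrocyte genes in the levels of the 9 genes was not tested. The 7 neuron markers summed to 850.4 to 940.7 CPM in NSC, 762.9 to 794.9 in Astrocyte, 896.8 to 1177 in Neuron and 789.2 to 800.0 in Oligodendrocyte, with Map2 as the main part of each sum. Of the 6 that were tested, 5 rose in Neuron against NSC, where 43.5% of all tested genes rose. In Astrocyte and in Oligodendrocyte against NSC, 4 rose and 2 fell. Of all tested genes, 48.0% rose and 35.6% fell in Astrocyte, and 48.1% rose and 32.2% fell in Oligodendrocyte. Dcx, which marks young neurons, averaged 1.60 CPM in NSC, 124.8 in Astrocyte, 147.7 in Neuron and 86.6 in Oligodendrocyte, and Rbfox3, which marks mature neurons, averaged 2.34 CPM in Neuron. The 7 stem cell and radial glia markers summed to 6098 to 6583 CPM in NSC and 3981 to 6210 CPM at day 4. These sums hide opposite moves. Against NSC, 4 rose and 3 fell in Astrocyte and in Neuron, and 0 rose and 4 fell in Oligodendrocyte. Of all tested genes, 48.0%, 43.5% and 48.1% rose and 35.6%, 39.6% and 32.2% fell in these media. Nes averaged 1251 CPM in NSC and 70.4 in Neuron, and Slc1a3 averaged 1135 in NSC and 2527 in Neuron. Microglia markers summed to at most 1.32 CPM and endothelial markers to at most 7.37 CPM in any library.

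The balance between the sets was measured in each library as the mean log2(CPM + 1) of the 3 commitment genes minus that of the 4 precursor genes. Gene length sets the zero of this measure, so only its shifts between libraries are read. It was -4.98 to -4.88 in NSC, 0.35 to 0.56 in Astrocyte, 1.45 to 1.56 in Neuron and 1.61 to 1.65 in Oligodendrocyte. The shift from NSC was thus 5.35 in Astrocyte, 6.44 in Neuron and 6.56 in Oligodendrocyte. The Neuron and Oligodendrocyte groups differed by 0.12 and did not overlap, although every gene in the measure had a lower mean with T3. This small difference rests on Pdgfra, which was at -1.64 between these media on the log2 scale. Cspg4, Olig1 and Olig2 were at -0.22, -0.08 and -0.24, and Gpr17, Bcas1 and Enpp6 at -0.47, -0.69 and -0.13. Ratios of single genes differed more, and not all in 1 direction. The CPM ratio of Enpp6 to Pdgfra was 0.803 to 0.903 in the Neuron libraries and 2.37 to 2.56 in the Oligodendrocyte libraries. That of Gpr17 to Pdgfra was 3.81 to 4.30 in Neuron and 8.73 to 9.77 in Oligodendrocyte, and that of Bcas1 to Pdgfra was 4.13 to 5.06 and 8.60 to 8.70. The ratio of Bcas1 to Olig2 went the other way, from 3.30 to 3.51 in Neuron to 2.40 to 2.57 in Oligodendrocyte. Within Neuron, the second library had the lowest ratio for Enpp6 and Gpr17 and the highest, 5.06, for Bcas1. No p is given for these scores, since the genes were chosen with results known.

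**Figure D3:**
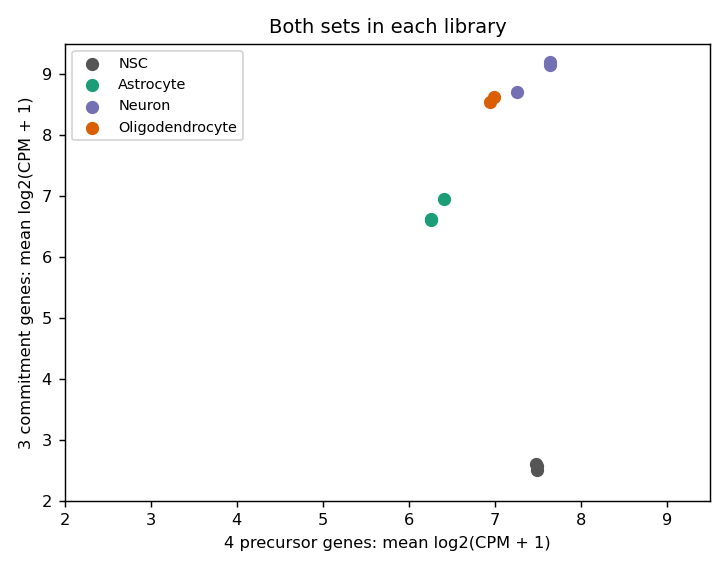
Mean log2(CPM + 1) of the 4 precursor genes against that of the 3 commitment genes in each of the 11 libraries, coloured by group. The NSC libraries stand alone in their low commitment mean, where their difference is -4.98 to -4.88. Their precursor means, 7.479 to 7.488, lie inside the Neuron range of 7.257 to 7.637. The Neuron and Oligodendrocyte libraries have the highest commitment means.

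Genes known to accompany the 9 were taken from lists of precursor, commitment and myelin genes. Of 15 other precursor genes, 14 were tested and Pcdh15 was listed at 0 in every library. Against NSC, 8 rose and 3 fell in Astrocyte, 10 rose and 4 fell in Neuron, and 10 rose and 4 fell in Oligodendrocyte. Of all tested genes, 48.0% rose and 35.6% fell in Astrocyte, 43.5% and 39.6% in Neuron, and 48.1% and 32.2% in Oligodendrocyte. Their median log2 difference was 0.60, 1.26 and 1.08, against 0.15, 0.06 and 0.19 over all tested genes. Between Oligodendrocyte and Neuron, 2 were higher and 10 lower with T3, with a median of -0.58, where 43.9% of all tested genes were higher and 23.6% lower, with a median of 0.15. Sox10, the factor that drives the lineage from precursor to myelin, averaged 2.71 CPM in NSC, 22.3 in Astrocyte, 134.8 in Neuron and 37.0 in Oligodendrocyte. It rose by 5.20 on the log2 scale in Neuron against NSC (SE 0.123, limma adjusted p = 1.71e-13). In Oligodendrocyte it was lower than in Neuron (-1.83, SE 0.137, limma adjusted p = 9.10e-08). Cacng4 and Emid1 were the 2 of this list that were higher with T3, by 0.92 (adjusted p = 1.39e-06) and 2.47 (adjusted p = 1.69e-09), and were picked out after their values were seen.

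C1ql1, a secreted protein of precursors, averaged 1.06 CPM in NSC, 86.5 in Astrocyte, 54.3 in Neuron and 12.5 in Oligodendrocyte. Rlbp1, a retinal-binding protein found in precursors and in glia of the retina, averaged 10.4, 35.2, 24.5 and 4.01 CPM in the same order. Both were lower with T3 than in Neuron, by -2.04 for C1ql1 (limma adjusted p = 1.38e-09) and by -2.35 for Rlbp1 (adjusted p = 6.12e-10). Pdgfra, Nkx2-2, Sox10, C1ql1 and Rlbp1 were each lower with T3. Cspg4 and Olig1 did not pass the test between these media, and Cacng4 and Emid1 were higher with T3.

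Most of the 12 other commitment genes rose in each medium. Against NSC, 9 rose and 1 fell in Astrocyte, 10 rose and 1 fell in Neuron, and 12 rose in Oligodendrocyte, with median log2 differences of 0.71, 2.13 and 1.88. The share of all tested genes that rose was 48.0%, 43.5% and 48.1% and the share that fell 35.6%, 39.6% and 32.2%. The falls were in Fyn, a kinase of myelinating cells, in Astrocyte (-1.12) and in Rras2, a small GTPase, in Neuron (-0.35), both picked out after their values were seen. Between Oligodendrocyte and Neuron, 6 were higher and 5 lower with T3 (43.9% and 23.6% of all tested genes), with a median of 0.15, and the median of all tested genes was 0.15 too when rounded to 2 decimals. Tmem163, a zinc transporter of newly formed oligodendrocytes, averaged 0.0900 CPM in NSC, 4.98 in Astrocyte, 25.4 in Neuron and 90.5 in Oligodendrocyte, and was 1.78 higher on the log2 scale with T3 (SE 0.136, limma adjusted p = 1.04e-07). Sirt2, a deacetylase of the oligodendrocyte cytoplasm, averaged 68.1, 451.4, 912.2 and 1102 CPM in the 4 groups, and was 0.27 higher with T3 (adjusted p = 0.00869). Lims2, the gene that overlaps Gpr17, was lower with T3 (-1.50, limma adjusted p = 7.96e-08), unlike Tmem163 and Sirt2. It averaged 0.493, 11.9, 50.4 and 17.1 CPM in the 4 groups. Gpr17 averaged far more, 862.7 CPM in Neuron, and was lower with T3 too. Whether the counting used strand is not given, so the Lims2 values are uncertain by reads of Gpr17.

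Of 12 myelination genes, 12 rose in Astrocyte, 12 in Neuron and 11 in Oligodendrocyte, with medians of 1.61, 3.201 and 3.74 on the log2 scale. Over all tested genes, 48.0%, 43.5% and 48.1% rose, and the medians were 0.15, 0.06 and 0.19. Aspa, which breaks down N-acetylaspartate, was the gene that fell in Oligodendrocyte (-0.29, adjusted p = 0.0227), and was picked out after its value was seen. Between Oligodendrocyte and Neuron, 6 were higher and 4 lower with T3 (43.9% and 23.6% of all tested genes), with a median of 0.17 (0.15 over all tested genes). Myrf, the transcription factor that switches on myelin genes, averaged 2.95 CPM in NSC, 21.7 in Astrocyte, 102.9 in Neuron and 179.7 in Oligodendrocyte, and was 0.82 higher on the log2 scale with T3 (SE 0.226, limma adjusted p = 0.00573). Cldn11, a tight junction protein of myelin, averaged 2.21, 18.5, 122.8 and 126.6 CPM in these groups, and its difference between Oligodendrocyte and Neuron was 0.04 (adjusted p = 0.795).

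**Figure D4:**
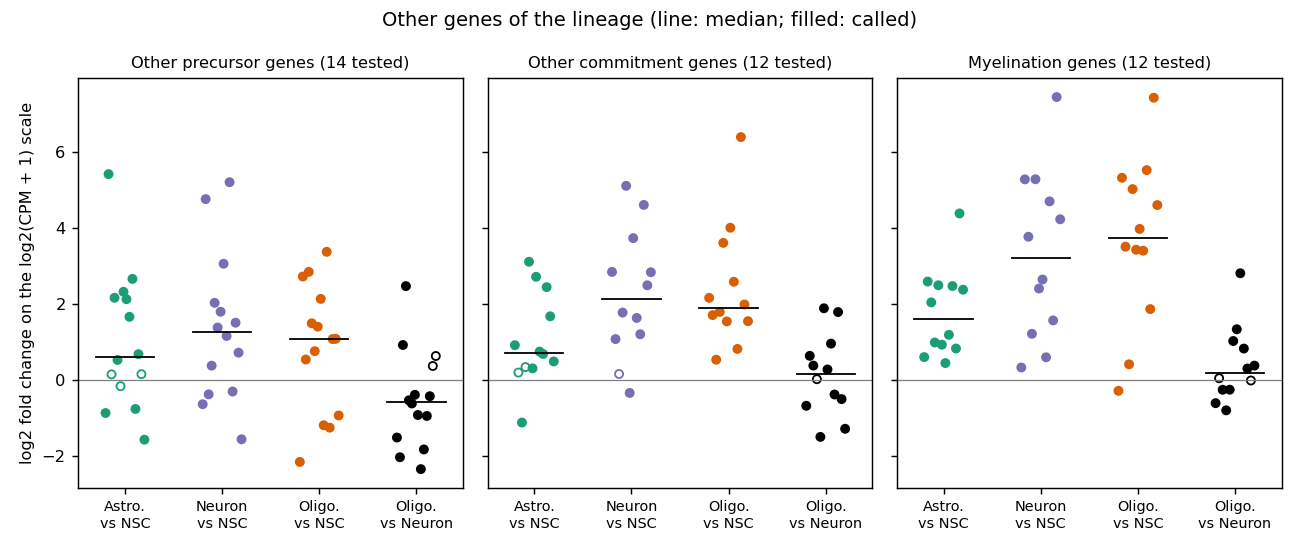
Log2 fold change on the log2(CPM + 1) scale of the genes of each oligodendrocyte list, with a line at each list's median, for the comparisons named below each panel. Against NSC the myelination genes have medians of 1.61 in Astrocyte, 3.201 in Neuron and 3.74 in Oligodendrocyte, and with T3 against Neuron the other precursor genes have a median of -0.58.

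Genes for ligands of Pdgfra and Ptprz1 were read next. Of 7 such genes, 6 were tested and Mdk was not. Against NSC, 4 rose and 2 fell in Astrocyte, 3 rose and 3 fell in Neuron, and 3 rose and 2 fell in Oligodendrocyte. Of all tested genes 48.0%, 43.5% and 48.1% rose and 35.6%, 39.6% and 32.2% fell. The medians of the ligand genes were 0.39, 0.25 and 0.51, against 0.15, 0.06 and 0.19. Pdgfa, the ligand of Pdgfra, averaged 12.8 CPM in NSC, 17.2 in Astrocyte, 21.5 in Neuron and 57.2 in Oligodendrocyte. It was 1.37 higher on the log2 scale with T3 than in Neuron (SE 0.106, limma adjusted p = 1.19e-07), where its receptor was lower. Tnc, an extracellular matrix glycoprotein that binds Ptprz1, fell from 985.7 CPM in NSC to 15.3, 18.6 and 22.2 CPM at day 4. Cntn1, a cell surface partner of Ptprz1, rose from 56.6 CPM to 221.1 in Astrocyte, 248.9 in Neuron and 534.1 in Oligodendrocyte. In Astrocyte, where Ptprz1 fell by 0.39 on the log2 scale, Tnc fell by 5.94 and Cntn1 rose by 1.95.

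Of 16 partners and regulators of the Olig genes and Nkx2-2, 14 were tested. Against NSC, 7 rose and 6 fell in Astrocyte, 8 rose and 4 fell in Neuron, and 7 rose and 6 fell in Oligodendrocyte. These counts stand beside 48.0%, 43.5% and 48.1% of all tested genes that rose and 35.6%, 39.6% and 32.2% that fell. Their medians were 0.27, 0.69 and 0.34 on the log2 scale, against 0.15, 0.06 and 0.19. Id4 and Id3 are inhibitors that bind helix-loop-helix factors and hold precursors back from differentiating. Id4 rose from 2.97 CPM in NSC to 224.3, 155.2 and 142.6 CPM in the Astrocyte, Neuron and Oligodendrocyte media, and Id3 fell from 75.6 CPM to 35.7, 10.9 and 22.2 CPM. The 2 inhibitors went in opposite directions in each medium. Nkx6-2, a homeodomain factor of maturing oligodendrocytes, averaged 1.04, 2.20, 4.16 and 14.2 CPM in the 4 groups and was 1.56 higher on the log2 scale with T3 than in Neuron (SE 0.123, limma adjusted p = 1.43e-07). Nkx2-2, of the same homeobox class, was lower with T3.

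The genes whose profile was most like each of the 9 were found by the root mean square difference of log2(CPM + 1) over the 11 libraries, after centring each gene, among the 10307 genes that averaged 10 CPM or more in some group. The 9 genes themselves were left out of this search, and their distances to each other are given after it. The smaller the value, the more alike the profiles. Bcas1 was nearest to Fa2h (0.195), Mag (0.198) and Cldn11 (0.281), and the 3 genes outside the set nearest to Enpp6 included Nfasc (0.447) and Mbp (0.564). The added constant of 1 shrinks the change of genes near 0 in NSC. From NSC to Neuron, mean CPM went from 0.187 to 36.1 for Fa2h, 0.0133 to 38.3 for Mag and 21.3 to 923.8 for Bcas1. Gpr17 was nearest to Ndrg2 (0.520), Dcx (0.674) and Nfasc (0.714). The 3 genes outside the set nearest to Pdgfra included Slc30a10 (0.199) and Camk2n1 (0.244). Cspg4 was nearest to Svil (0.175), Bche (0.177) and Nin (0.191), and Olig2 to Nrm (0.197), Hpcal1 (0.265) and Lgr5 (0.289). Olig1 was nearest to Hnrnpa1 (0.0761), Nxph1 (0.0834) and Epn2 (0.110). Nkx2-2 was nearest to Kcnd2 (0.171), Eda (0.175) and Kcnf1 (0.176), and Ptprz1 to Prox1 (0.0784), Zfp81 (0.0912) and Tcf4 (0.0914). A gene that moves little has small distances to all genes that move little, which bears on the values of Ptprz1. Among the 9, Olig1 and Olig2 lay 0.271 apart and Enpp6 and Gpr17 0.530 apart. Pdgfra lay 1.15 from Bcas1, 1.16 from Ptprz1, 1.17 from Nkx2-2, and 1.54 to 1.98 from the other 5.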

How the data were processed

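The authors deposited 1 table of CPM values, in which the reads of each library are scaled to the same total, covering 37991 genes in 11 libraries on mouse build NCBIM37 (mm9), rounded to 2 decimals, per the file headers. Per the submitters' processing notes the tools included bcl2fastq 1.8.4, TopHat2 2.0.8, HTSeq 0.6.1 and edgeR 3.2.4. Whether edgeR normalization factors entered the CPM values was not tested. For the annotation release, the use of strand in counting, and read filters the entry is "not given in the sources used here". The deposited columns of group SD were not used. Listed genes summed to 74.95% to 80.25% of the full CPM total, and low values fell on steps that give an estimated 49.3 to 66.2 M (mega) reads per library. Read numbers are estimates, so no count model was fitted.

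Groups came from the labels. CPM was put on log2(CPM + 1). The 13342 genes that reached 1 CPM in 2 or more libraries were fitted with limma 3.58.1 in R 4.3.3, with 1 mean per group over all 11 libraries and eBayes with a trend (5.96 prior and 7 residual degrees of freedom). The 6 comparisons were adjusted by Benjamini-Hochberg over all genes tested, each on its own, with a threshold of 0.05. The script was tested on simulated data. The alternatives were other constants, filters and scalings, no trend, fits on the groups compared, a replicate block and leaving out each library.

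The 9 genes and all gene lists were chosen with earlier results of these data known. From each lineage, ligand and partner list, the text names the 3 genes with the largest called change and an average of 10 CPM or more in some group, plus Sox10, Myrf and Pdgfa. A few genes that this rule or the profile search selects are not reported here. Myrf and Map2, under older symbols in the table, were matched by Ensembl identifier. Promoter sequences are from RefSeq on GRCm38.p6, another build than the gene coordinates. Python 3.11.15, pandas 2.3.3, numpy 2.4.6 and matplotlib 3.10.9 were used for summaries and plots.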

Additional observations from a re-analysis of the deposited data

Results flagged for a closer look

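Nkx2-2 moved in opposite directions in different media, and the difference itself was tested. It was -0.75 in Astrocyte against NSC and 0.66 in Neuron against NSC on the log2 scale, a difference of -1.42 (SE 0.0856, limma adjusted p = 1.47e-08). All 3 Astrocyte libraries were below and all 3 Neuron libraries above every NSC library. In Oligodendrocyte against NSC it was -1.16, a difference from Neuron of -1.82 (SE 0.0957, limma adjusted p = 3.18e-09), with both Oligodendrocyte libraries below every NSC library. The contrasts share the NSC libraries, which cancel in each difference.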

How the results depend on the processing

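Over 21 alternatives, 45 of the 54 combinations of gene and comparison kept their direction and their side of the threshold. Of 1134 values, 22 lost a call, 8 gained one and 1 changed sign: Ptprz1 in Neuron against NSC was -0.2461 under quantile normalization (adjusted p = 0.0449). The number of the 9 genes called was 9 under all alternatives in Astrocyte against NSC and against Neuron, 7 to 9 in Neuron against NSC, 8 to 9 in Oligodendrocyte against NSC, 4 to 8 in Oligodendrocyte against Neuron and 7 to 8 in Oligodendrocyte against Astrocyte. Over all genes the lowest count was 5004 and the highest 8029 in the last of these, against 6966 as reported. Quantile normalization called Pdgfra there (-0.29, adjusted p = 0.0476).

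Deviations from the group means correlated over 0.1 in 6 of 15 pairs of same-numbered libraries of different groups (r from -0.51 to 0.41). They did so in 7 of 30 pairs with different numbers (r from -0.54 to 0.54). Deviations sum to 0 within a group, so the pairs are not independent and this check cannot settle whether the libraries were paired. With a replicate block 5 of the 9 genes, not 6, were called in Oligodendrocyte against Neuron, since Olig2 was then at -0.20 (adjusted p = 0.0549), and it changed no other of these counts. Leaving out an Oligodendrocyte library leaves 1, assumed to vary like the other groups. Depth limits Enpp6 in NSC, at an estimated 8 to 22 reads.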
